A study of Mus musculus with 16 samples.

Results

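MicroRNA counts were compared between polar fragments of diapaused and of normal mouse blastocysts. The members are every miRNA row of the libraries labelled polar and diapaused (n = 3) and polar and WT (n = 2), which are 5 of the 16 samples of the series. Each file lists the same 1978 mature miRNA names. Of these, 404 had at least 1 count in the 5 libraries and 1574 had none. The 102 names that passed a filter on low counts, set over all 16 libraries, were tested.

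The WT libraries came from normal blastocysts at embryonic day 4.5, and the diapaused ones from blastocysts paused in vivo, taken at a stage the labels give as EDG7.5. Each blastocyst was cut with a laser, and the polar piece is the one that holds the inner cell mass, while the other is mural trophectoderm. No strain, transgene or drug is named for either group, and no count of embryos per library. The labels do not say that libraries of a group came from separate embryos or days, so p-values measure the spread between these samples, which may be technical. Stage and diapause cannot be told apart in this design. Mural fragments of the same 2 kinds of blastocyst and polar fragments of blastocysts paused with an mTOR inhibitor (mTORi) are described only to show where the polar change differed, while all 16 libraries, mural mTORi ones included, entered the fit that sets the filter and the estimate of spread.

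In diapause, development of the blastocyst halts reversibly ahead of implantation, and cell division and metabolism slow down. A miRNA is a short RNA that guides an Argonaute protein to messenger RNAs and lowers their output. Targets are picked mainly by the seed, the bases just after the first base at the 5′ end, so that miRNAs with the same seed form a family with overlapping targets. In the early mouse embryo the miR-290/miR-295 cluster is the best known group, expressed in pluripotent cells and trophoblast, while the miR-200 family is known for keeping epithelial cells together.

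The mature sequences below, from the RefSeq table on GRCm38.p6 and written 5′ to 3′ with the seed (bases 2 to 8) in capitals, are those of the miRNAs on which the comparison turns. The first 3 share 1 seed and belong to the miR-200 family, of which miR-200c-3p and miR-200b-3p rose.
miR-200c-3p: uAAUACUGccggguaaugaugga
miR-200b-3p: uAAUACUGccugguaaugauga
miR-429-3p: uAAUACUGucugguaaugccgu
The other members of the miR-200 family carry a seed that differs from the first.
miR-200a-3p: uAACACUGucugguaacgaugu
miR-141-3p: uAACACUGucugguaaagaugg
The miR-10 pair shares a seed, and its 2 members differ at 1 base only, the substitution A12U from miR-10b-5p to miR-10a-5p, counted from 1 at the 5′ end.
miR-10b-5p: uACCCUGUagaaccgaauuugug
miR-10a-5p: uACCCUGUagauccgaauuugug
The miR-148/miR-152 family also shares 1 seed, with the substitutions C9U and U10C from miR-148a-3p to miR-148b-3p and C9U, U10G and U20G from miR-148a-3p to miR-152-3p.
miR-148a-3p: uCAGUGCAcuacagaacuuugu
miR-152-3p: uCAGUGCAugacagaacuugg
miR-148b-3p: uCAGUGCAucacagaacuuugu
Neither miRNA called lower shares its seed with another tested name.
miR-672-5p: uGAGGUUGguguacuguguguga
miR-451a: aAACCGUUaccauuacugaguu
From the miR-290/miR-295 cluster, the 5p arms with the seed CUCAAAC and 2 of the abundant 3p arms are shown, because the arms take up the largest part of the counts.
miR-292a-5p: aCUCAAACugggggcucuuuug
miR-293-5p: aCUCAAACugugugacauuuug
miR-290a-5p: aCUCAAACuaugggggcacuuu
miR-294-3p: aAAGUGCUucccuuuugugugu
miR-293-3p: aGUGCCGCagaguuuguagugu
Of all names in the files, 1679 matched a RefSeq sequence and 299 did not. miR-30d-5p and miR-292a-3p, named below, are among the latter.

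The libraries were shallow and unequal in depth. Total counts were 14500, 9510 and 9049 in diapaused replicates 1, 2 and 3, and 1744 and 4940 in WT replicates 1 and 2. A name with 0 counts in a whole group could still be present at up to 84.57 CPM (tested counts scaled to a common library size) in the diapaused and 442.2 CPM in the WT group, by the limit of 3 counts. These limits and the intervals below cover counting error only. On a log2 scale the 2 WT libraries had a Pearson r of 0.685, beside 0.876 to 0.881 between diapaused libraries. These values are over names with 10 or more counts in the pair. WT replicate 2 also stood apart in markers of other tissues. Of 77 names listed as markers of blood, endothelium, muscle, liver, stroma, nerve or endocrine cells it held 13, with 154 counts or 3.117% of its total (Wilson 95% interval 2.67 to 3.64%), against 0.2621 to 0.442% (5 to 40 counts) in the other 4 libraries. Of these 154 counts, 113 were of miR-451a alone. miR-451a, miR-2137, miR-5126 and miR-30e-3p, whose WT counts lay mostly in this library, are given with and without it. Markers of the embryo were set beside the tissue labels. The miR-290/miR-295 cluster held the largest share of counts of any list in all 5 libraries. Its most abundant name, miR-292a-5p, also had means of 268510 CPM in mural diapaused and 232804 CPM in mural WT fragments. The cluster therefore cannot tell polar from mural pieces. The trophectoderm cluster miR-322/miR-503 held 1.566, 0.967 and 0.752% of diapaused and 0.401 and 0.891% of WT counts. The epiblast cluster miR-302/miR-367 had 5, 2 and 8 counts in the diapaused and 7 and 8 in the WT libraries. As shares these are 0.034, 0.021 and 0.088% against 0.401 and 0.162%, so each diapaused library was below both WT libraries. No name of that cluster passed the filter, and the difference in share was not tested.

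Diapaused polar fragments carried more miR-10b-5p, more miR-200c-3p and miR-200b-3p, more miR-30d-5p and more miR-148a-3p and miR-152-3p than WT ones, by 1.88 to 4.15 times where a ratio of levels can be given. For miR-152-3p, with 1 WT count in all, the filter was passed through libraries in which it was high. Diapaused fragments carried less miR-672-5p, at 0.185 times the WT level. The miR-290/miR-295 cluster held the most counts in both groups. Of the 102 tested miRNAs, 8 passed an adjusted p (Benjamini-Hochberg) of 0.05 in edgeR's quasi-likelihood test and are named called (7.84%), 6 higher in diapaused fragments (5.88%) and 2 lower (1.96%). With RLE factors in place of TMM the same 8 and 5 others, all lower, were called, so that 46.2% of calls were higher in place of 75%. The median log2 change over all tested miRNAs was 0.10. The calls of miR-30d-5p, miR-152-3p, miR-200b-3p and miR-148a-3p were lost without a filter on low counts (adjusted p = 0.0686 to 0.390) and in a fit of the 3 polar groups alone (adjusted p = 0.0554 to 0.0583), where miR-451a fell below the filter. In these bulk fragments, fewer cells of a type and less RNA per cell cannot be told apart.

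**Figure D1:**
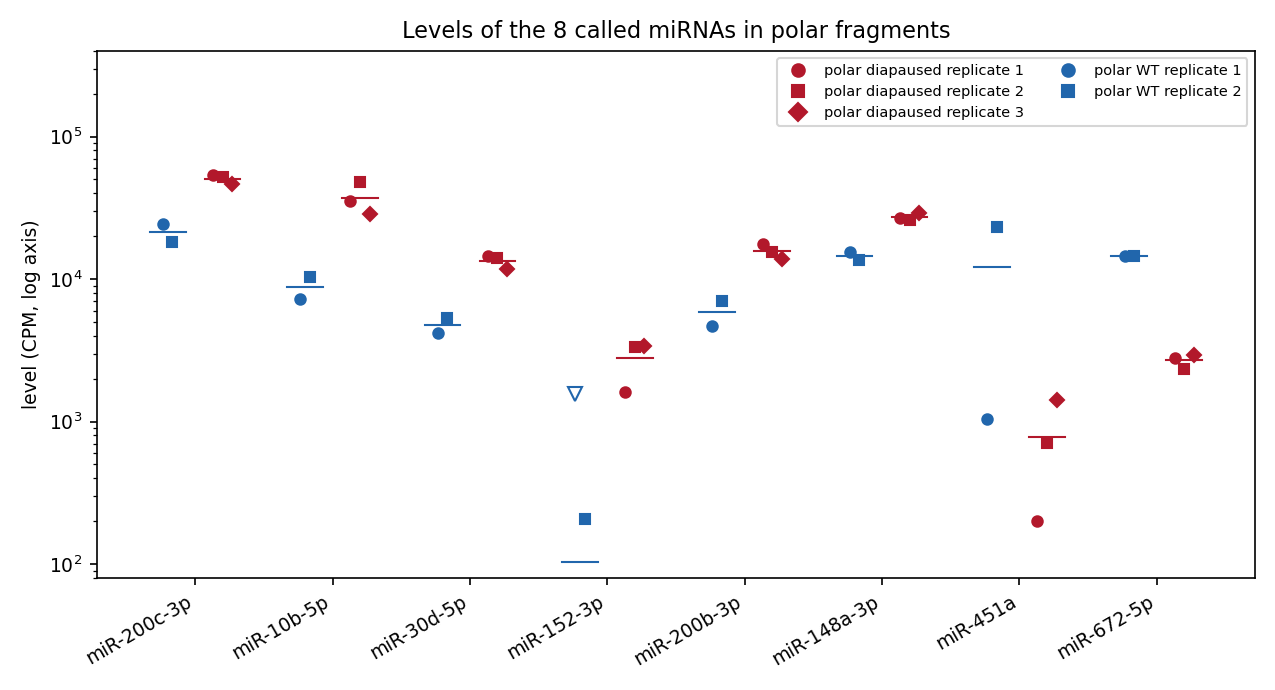
Levels of the 8 called miRNAs in each polar library, in CPM after TMM scaling on a log axis, with WT libraries in blue, diapaused libraries in red, symbols for replicates and short lines for group means. The open triangle is the level of 3 counts in WT replicate 1, where miR-152-3p had 0. The groups do not overlap for 7 of the 8, beside 28 higher and 18 lower of all 102 tested miRNAs. The 8 were picked by their p in these same libraries. For miR-451a WT replicate 2 lies far above the other 4 libraries.

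miR-10b-5p, encoded in the Hoxd cluster, had the largest rise among the called miRNAs with more than 3 counts in WT. It had 527, 474 and 302 counts in diapaused replicates 1 to 3 and 14 and 50 in the WT libraries, or 35103, 47991 and 28532 CPM against 7266 and 10295 CPM. The lowest diapaused library was above the highest WT library. The log2 change was 2.05 (SE 0.42, edgeR adjusted p = 0.00653), and it was called in each of the 5 fits that leave out 1 of these libraries, at 1.69 to 2.39. Its hairpin lies at chromosome 2, 74726070 to 74726137 (plus strand, GRCm38), inside the annotated bounds of Hoxd3 and Hoxd4 and outside their exons. miR-10a-5p, its near copy beside the Hoxb genes, had 37, 23 and 24 counts against 1 and 2, a count ratio of 5.35 (exact 95% interval 1.77 to 26.5), and was not called (adjusted p = 0.159).

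The miR-200 family, known for repression of the Zeb genes and maintenance of epithelium, rose in 2 of its 5 tested members, and all 5 had higher levels in every diapaused library than in either WT library. Non-overlap of this kind in the higher direction was found for 28 of the 102 tested miRNAs (27.5%), and in the lower direction for 18 (17.6%). miR-200c-3p had 802, 517 and 489 counts in diapaused and 47 and 88 in WT libraries. That is 53421, 52344 and 46199.7 CPM against 24393.5 and 18119 CPM, which do not overlap. Its log2 change was 1.26 (SE 0.25, edgeR adjusted p = 0.00653), with 1.10 to 1.33 and a call in each fit that leaves out a library.

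miR-200b-3p had 266, 153 and 147 counts against 9 and 34, or 17718, 15491 and 13888 CPM against 4671 and 7000.5 CPM. Its log2 change was 1.39 (SE 0.38, edgeR adjusted p = 0.0311). The call was lost without diapaused replicate 1, 2 or 3 (adjusted p = 0.0920, 0.0763 and 0.0568) and without WT replicate 1 (log2 1.02, adjusted p = 0.199), and kept without WT replicate 2 (log2 1.80, adjusted p = 0.0403). miR-200a-3p, from the same locus on chromosome 4, had 107, 95 and 59 counts against 1 and 16, with a log2 value of 1.74 (SE 0.58, adjusted p = 0.071). Without WT replicate 2 it was called (adjusted p = 0.0341), with 1 count left in the WT group, and without WT replicate 1 its log2 value was 1.01 (adjusted p = 0.369). miR-429-3p had 80, 34 and 18 counts against 0 and 8 (log2 1.71, SE 0.91), with diapaused replicate 3 close to WT replicate 2. miR-141-3p had 18, 15 and 25 counts against 0 and 3, a count ratio of 3.70 (exact 95% interval 1.20 to 18.4). The median of the 5 members was 1.71, beside 0.10 for all tested miRNAs, and together they held 8.862, 8.665 and 8.255% of diapaused counts and 3.268 and 3.077% of WT counts. The hairpins of miR-200c (chromosome 6, 124718322 to 124718390, minus strand, inside the antisense gene Gm15884) and miR-200b (chromosome 4, 156055681 to 156055750, minus strand, inside Ttll10 and Gm13648 and outside their exons) lie on different chromosomes.

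The miR-148/miR-152 family, known for targeting DNA methyltransferase genes, had 2 of its 3 tested members called higher. For miR-152-3p this rests on 1 WT count. miR-148a-3p had 404, 256 and 309 counts in diapaused and 30 and 66 in WT libraries, or 26910, 25919 and 29194 CPM against 15570.3 and 13589 CPM. Every diapaused library was above both WT libraries. The log2 change was 0.91 (SE 0.26, edgeR adjusted p = 0.0379). The call was lost in each fit that leaves out 1 of the 5 libraries, with values of 0.85 to 0.98 and adjusted p = 0.0920, 0.0763 and 0.119 without diapaused replicates 1, 2 and 3, and 0.147 and 0.199 without WT replicates 1 and 2. It was also lost in the fit of the 2 groups alone (adjusted p = 0.0527) and with the replicate number as a block (adjusted p = 0.0739).

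miR-152-3p had 24, 33 and 36 counts in diapaused libraries against 0 and 1 in WT libraries. The count ratio was 17.8 (exact 95% interval 3.11 to 710.0, edgeR adjusted p = 0.0238). The name passed the filter through libraries in which it was high, so the call adds little to the counts themselves. Without WT replicate 1 the adjusted p was 0.147, without WT replicate 2, which leaves a WT group at 0 counts, it was 0.197, and without diapaused replicate 2 or 3 it fell below the filter. miR-148b-3p had 32, 18 and 27 counts against 1 and 5 (log2 1.33, SE 0.59, adjusted p = 0.159). The family held 3.221, 3.249 and 4.133% of diapaused counts and 1.835 and 1.457% of WT counts. The miR-152 hairpin lies within Copz2 and outside its exons (chromosome 11, 96850393 to 96850465, plus strand), and that of miR-148a lies outside annotated genes of its strand (chromosome 6, 51269812 to 51269910, minus strand).

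miR-30d-5p, of the widely expressed miR-30 family, had 219, 138 and 124 counts in diapaused and 8 and 26 in WT libraries. Levels were 14588, 13972 and 11715 CPM against 4152 and 5353 CPM, again without overlap. The log2 change was 1.47 (SE 0.37, edgeR adjusted p = 0.0187). It was lost without diapaused replicate 1 or 2 (adjusted p = 0.0561 and 0.0661) and without WT replicate 1 (log2 1.18, adjusted p = 0.139). Its hairpin overlaps an exon of the noncoding gene Gm20732 (chromosome 15, 68341208 to 68341289, minus strand).

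The miR-30 family did not move as a block. Of its 5 tested members miR-30d-5p was called, miR-30b-5p (13, 12 and 3 counts against 0 and 1) was at a count ratio of 5.35 (exact 95% interval 0.885 to 219), and miR-30e-5p, miR-30a-5p and miR-30e-3p had log2 values of -0.61, -0.68 and -2.21, none called. The miR-30e-3p arm had 8, 4 and 2 counts against 1 and 13, so the level in WT replicate 1 was within the diapaused range and 13 of the 14 WT counts came from WT replicate 2. Its log2 value was -0.36 without WT replicate 2 (adjusted p = 0.974), and it was called without WT replicate 1 (log2 -2.88, adjusted p = 0.0371). The median of the 5 was -0.61, with the miR-30e-3p arm included, whose seed differs from that of miR-30e-5p and miR-30a-5p. Summed over all its names, the family held 2.517, 2.324 and 2.022% of diapaused and 1.606 and 1.862% of WT counts.

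miR-672-5p fell. It is an X-linked miRNA (hairpin at chromosome X, 104116175 to 104116274, minus strand, within Nexmif and outside its exons). It had 42, 23 and 31 counts in the diapaused libraries, which are the deeper ones, and 28 and 71 in the WT libraries. Levels were 2798, 2329 and 2929 CPM against 14532 and 14619 CPM, a wide gap with little spread within either group. The log2 change was -2.43 (SE 0.55, edgeR adjusted p = 0.00885). The call was lost without diapaused replicate 2 (log2 -2.31, adjusted p = 0.0661) and without WT replicate 2 (log2 -2.38, adjusted p = 0.069).

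The other call in this direction, miR-451a, rests on 1 library. This miRNA of red blood cells, processed by Ago2 without Dicer, had 3, 7 and 15 counts in diapaused libraries, 2 in WT replicate 1 and 113 in WT replicate 2. Levels of 199.8, 708.7 and 1417 CPM overlapped with the 1038 CPM of WT replicate 1, while WT replicate 2 stood at 23266 CPM. The log2 change was -4.07 (SE 0.86, adjusted p = 0.00653 in edgeR) and became -0.44 (SE 1.46, adjusted p = 0.943) without WT replicate 2, and without any 1 diapaused library the name fell below the filter. WT replicate 2 also held the most counts of several other miRNAs of blood and liver, with 3 each of miR-144-5p and miR-144-3p, 12 of miR-142a-3p and 5 of miR-122-5p, against 0 to 2 in each other library. Some names of the blood and endothelium lists had their most counts in a diapaused library instead, all of which were deeper. miR-155-5p had 5, 0 and 0 counts in diapaused libraries against 0 and 2 in WT ones. miR-150-5p had 3, 1 and 2 against 0 and 1, and miR-126a-3p had 6, 3 and 11 against 0 and 3. No tested name other than miR-451a is in these lists, and all 7 endocrine names were at 0. Muscle names had 2 counts in all 5 libraries. Of the defining markers, miR-144-3p, miR-122-5p and miR-126a-3p were at 0 in WT replicate 1, and miR-223-3p was at 0 in both WT libraries. The part of such cells in other differences between the groups was not tested.

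**Figure D2:**
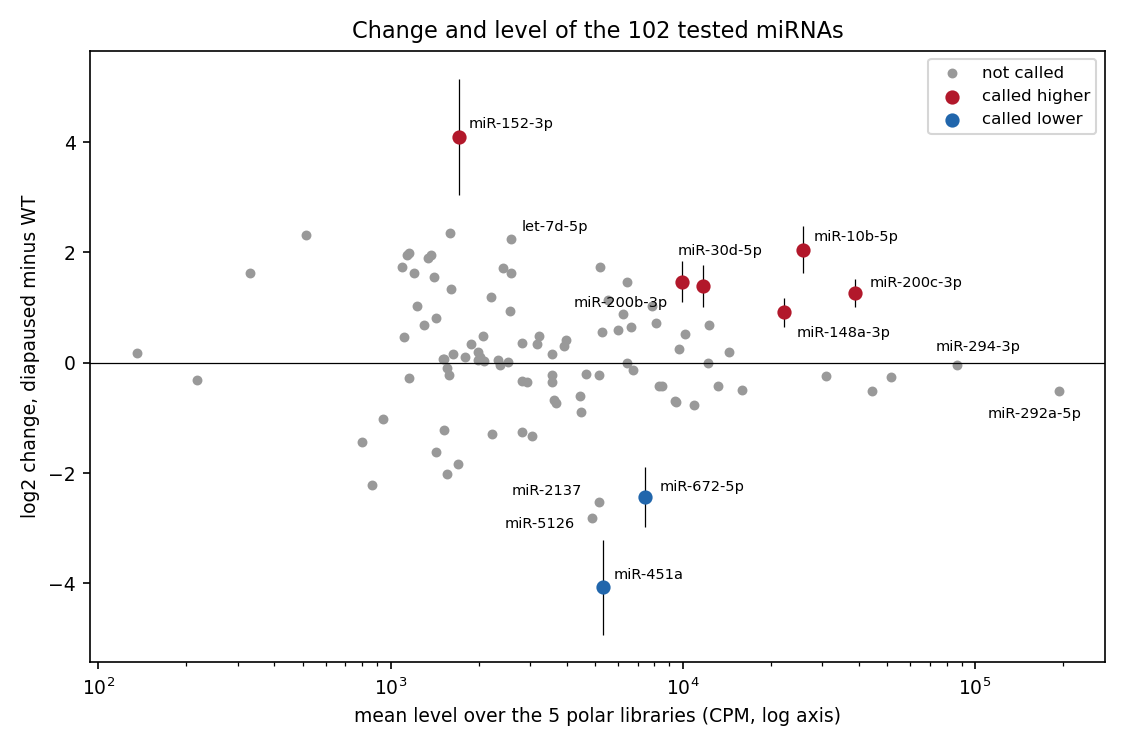
Log2 change (diapaused minus WT) of the 102 tested miRNAs against their mean level over the 5 polar libraries in CPM, on a log axis. Called miRNAs are coloured and carry bars of 1 SE. 5 of the 6 calls in the higher direction lie at mean levels of 9956 CPM or above, and the most abundant name, miR-292a-5p, lies just below 0.

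Below the threshold, the smallest adjusted p belonged to let-7d-5p, a member of the let-7 family that is known to rise with differentiation. It had 58, 34 and 46 counts against 0 and 6, with a log2 value of 2.24 (SE 0.68, edgeR adjusted p = 0.0511), and the lowest diapaused library was above both WT libraries. It was called without WT replicate 2, where the remaining WT library held 0 counts (adjusted p = 0.0403), and its log2 value was 1.49 without WT replicate 1 (adjusted p = 0.334). let-7g-5p had 97, 78 and 73 counts against 7 and 14 (log2 1.14, SE 0.45, adjusted p = 0.134) and let-7i-5p had 32, 21 and 14 against 2 and 2. let-7b-5p and let-7e-5p overlapped between the groups, so 3 of 5 tested members were without overlap, beside 28 of all 102 in the higher direction (27.5%). None was called, and the family median was 1.14.

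miR-5126 and miR-2137 had the next smallest adjusted p after let-7d-5p. miR-5126 had 18, 14 and 19 counts against 11 and 70 (log2 -2.81, SE 0.92, adjusted p = 0.0662), and miR-2137 had 26, 23 and 16 against 5 and 86 (log2 -2.52, SE 0.83, adjusted p = 0.0662). In both, most WT counts were in WT replicate 2, the deeper WT library. On the CPM scale both were without overlap in the lower direction. miR-5126 stood at 1199, 1417 and 1795 CPM in diapaused and 5709 and 14413 CPM in WT libraries. miR-2137 stood at 1732, 2329 and 1512 CPM against 2595 and 17707 CPM. Without WT replicate 2 the log2 value of miR-2137 was -0.44 (adjusted p = 0.932) and that of miR-5126 was -1.92 (adjusted p = 0.517). Without WT replicate 1, which leaves replicate 2 as the WT group, miR-2137 was called at -3.40 (adjusted p = 0.0333) and miR-5126 was at -3.44 (adjusted p = 0.0595). Their sequences stand out in base composition, with 100% G or C in miR-5126 and 85.7% in miR-2137, beside a median of 45.5% over the 89 tested miRNAs with a sequence. Across those 89, GC content and log2 change had a Spearman rho of -0.149, given as a description over miRNAs from the same 5 libraries.

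Known from mouse embryonic stem cells, the miR-290/miR-295 cluster held 44.59, 45.21 and 37.97% of diapaused counts and 50.63 and 55.32% of WT counts. All diapaused libraries were below both WT libraries, at 42.6% ± 4.01 (SD, n = 3) against 53.0% ± 3.32 (n = 2). All 13 names of the cluster with counts were tested and 0 were called in the main fit. With RLE factors and in DESeq2, miR-292a-5p and miR-293-5p were called lower. With the stricter filter these and miR-292a-3p were called lower. In the lower direction 5 were without overlap, beside 18 of all 102 tested miRNAs (17.6%). The cluster's smallest adjusted p in edgeR was 0.121. The median log2 value was -0.34.

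The cluster's difference in share lay more in the 5p than in the 3p arms. The 5p arms took 24.11, 23.73 and 19.07% of diapaused and 29.7 and 31.05% of WT counts, without overlap. The 3p arms took 20.48, 21.47 and 18.9% against 20.93 and 24.27%, with diapaused replicate 2 above WT replicate 1. miR-292a-5p accounted for most of the 5p counts, with 18.82, 19.55 and 14.87% of diapaused and 24.37 and 24.51% of WT counts. Its log2 value was -0.50 (SE 0.19, edgeR adjusted p = 0.121), and it was called without WT replicate 1 (log2 -0.74, adjusted p = 0.0359), where the adjusted p ran over 130 miRNAs. The log2 value was -0.37 without WT replicate 2 (adjusted p = 0.487) and -0.34 without diapaused replicate 3 (adjusted p = 0.309).

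Among the other arms, miR-293-5p had 150, 78 and 83 counts against 22 and 85 (log2 -0.77, SE 0.33, adjusted p = 0.159), and miR-292a-3p had 645, 401 and 320 against 89 and 299 (log2 -0.51, SE 0.23, adjusted p = 0.159). Both were lower in every diapaused library on the CPM scale. miR-294-3p, whose seed is shared with miR-291a-3p and miR-295-3p and is known from the miR-302 family, had 1314, 955 and 766 counts against 154 and 469. Its share was 9.062, 10.04 and 8.465% against 8.83 and 9.494%, overlapping throughout, and its log2 value of -0.05 crossed 0 with library size scaling (0.0037). The miR-292a hairpin gave 80.2 to 82.68% of its counts from the 5p arm in all 5 libraries, beside log2 values of -0.50 and -0.51 for its 2 arms. For the miR-293 hairpin the 5p share was 17.67, 12.64 and 15.37% in diapaused and 19.3 and 20.83% in WT libraries.

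**Figure D3:**
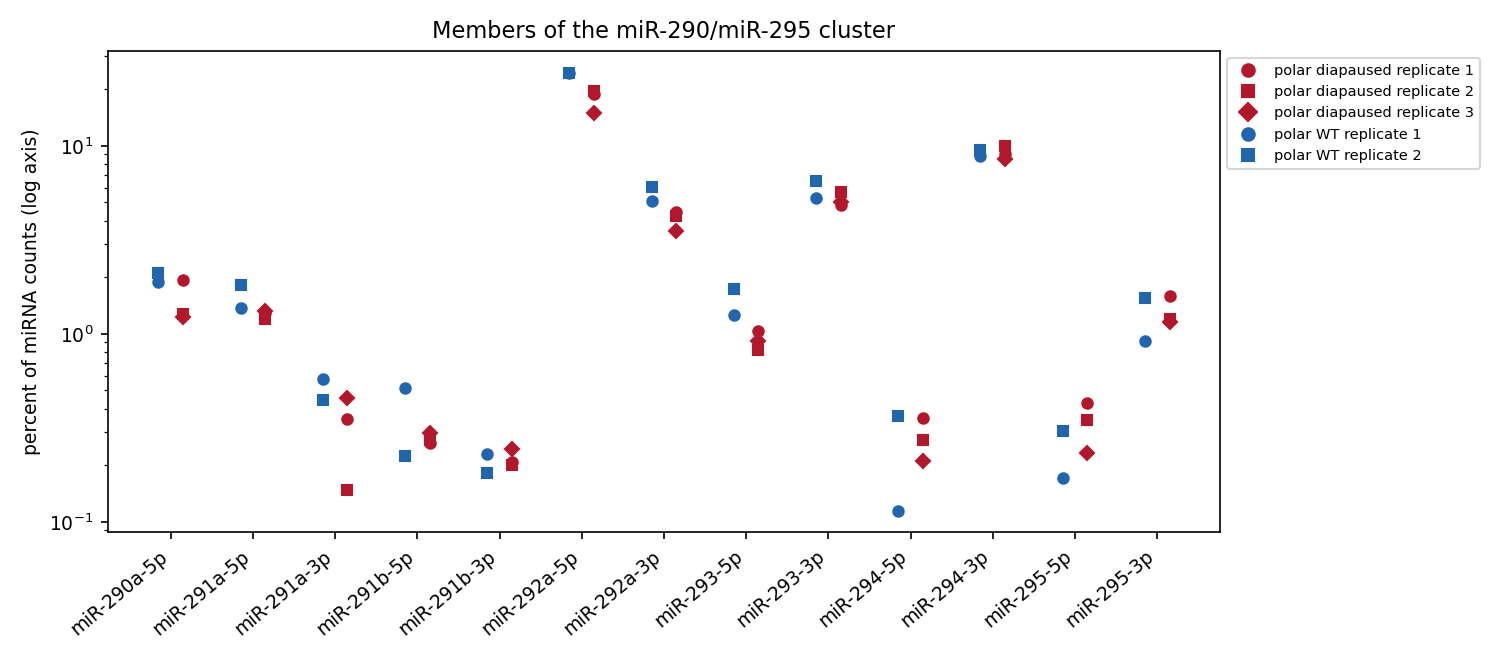
Percent of all miRNA counts held by each of the 13 detected arms of the miR-290/miR-295 cluster, on a log axis, with WT libraries in blue on the left and diapaused libraries in red on the right of each name. miR-292a-5p is at 24.37 and 24.51% in WT and at 14.87 to 19.55% in diapaused libraries, and miR-294-3p overlaps between the groups.

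Members of the miR-17/miR-92 clusters, known for promoting proliferation, had 0 calls of 6 tested, with the smallest edgeR adjusted p at 0.159. In the lower direction 4 were without overlap, beside 18 of all 102 tested miRNAs (17.6%). miR-17-5p had 25, 25 and 15 counts against 11 and 19 (log2 -1.32, SE 0.59), and miR-20a-5p, which differs from it by C1U and C12U, had 15, 27 and 19 against 7 and 24 (log2 -1.26, SE 0.60). miR-92a-3p had 96, 66 and 99 counts against 29 and 46 (log2 -0.69, SE 0.39). The sum over the clusters was 2.343% ± 0.379 (SD, n = 3) of diapaused and 3.714% ± 1.07 (n = 2) of WT counts.

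Other lists showed no called member. In the miR-322/miR-503 cluster, known from trophectoderm, the 5 tested members had log2 values of 0.03 to 1.62. Of these, 1 was without overlap in the higher direction, beside 28 of all 102 tested miRNAs (27.5%). The 3 tested members of the Sfmbt2 families, encoded in an intron of a gene active in trophoblast, ran from 0.04 to 0.60. In the imprinted Dlk1-Dio3 cluster 4 members were tested and 0 were without overlap, beside 28 higher and 18 lower of all 102. miR-182-5p, among the 10 most abundant names, had 360, 232 and 415 counts against 64 and 169 (log2 -0.24, SE 0.31), and the miR-183/miR-96/miR-182 cluster held 4.918% ± 1.67 (SD, n = 3) of diapaused and 5.095% ± 0.822 (n = 2) of WT counts. miR-101a-3p and miR-101b-3p, of which the second carries 1 extra base at its 5′ end and so another seed in this table, stood at -0.90 and 0.89, neither called.

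**Figure D4:**
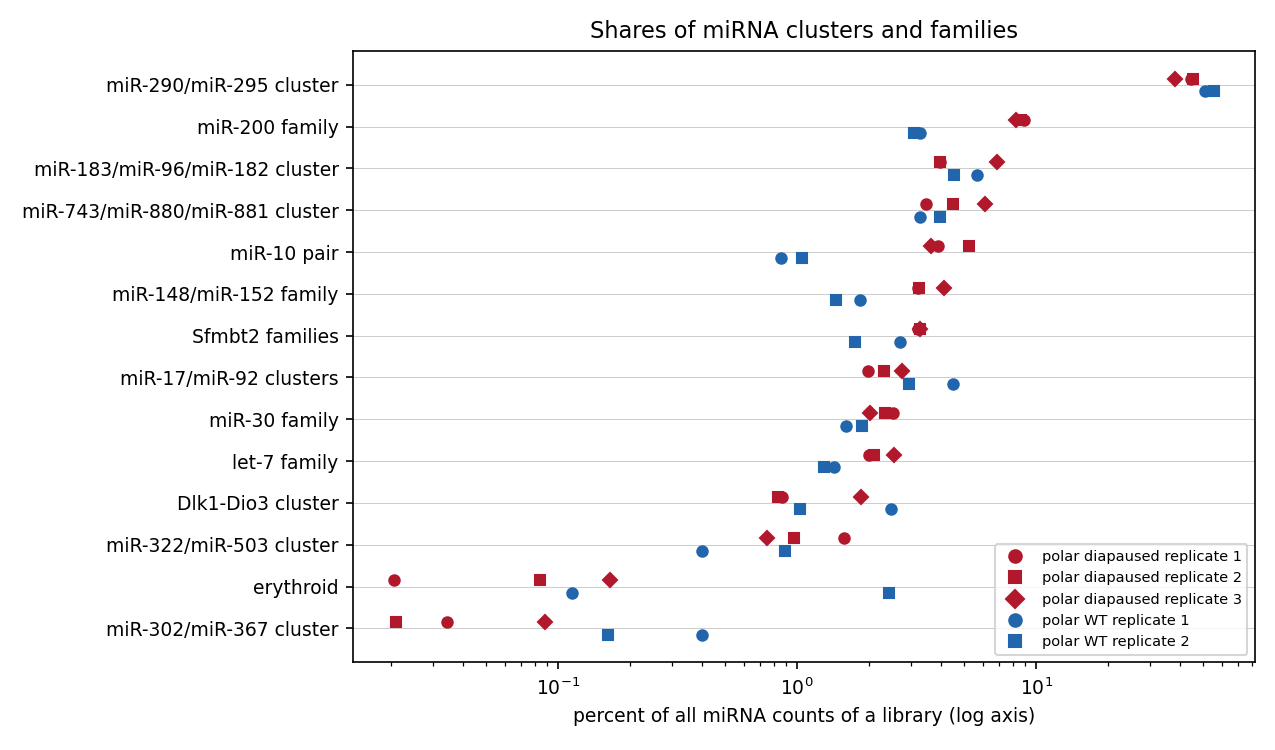
Percent of all miRNA counts of each polar library held by 14 clusters and families, on a log axis, with WT in blue, diapaused in red and symbols for replicates. The miR-200 family, the miR-10 pair and the miR-148/miR-152, let-7, miR-30 and Sfmbt2 families are higher in all diapaused libraries. The miR-290/miR-295, miR-17/miR-92 and miR-302/miR-367 clusters are lower in all of them, and the erythroid list is high in WT replicate 2 alone.

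The counts were also summed over all names that share a seed, and 6 of 66 seed families were called (9.09%). The seed AAUACUG of miR-200c-3p, miR-200b-3p and miR-429-3p had 1148, 704 and 654 counts in diapaused and 56 and 130 in WT libraries, and rose by 1.23 on the log2 scale (SE 0.23, adjusted p = 0.00626 in edgeR). The call was lost without diapaused replicate 1 (adjusted p = 0.0559). The seed ACCCUGU of the miR-10 pair rose by 1.95 (SE 0.40, adjusted p = 0.00626) and was called in each fit with a library left out. The seed CAGUGCA of the miR-148/miR-152 family, with 460, 307 and 372 counts against 31 and 72, rose by 0.97 (SE 0.23, adjusted p = 0.010). This call was lost with RLE factors (adjusted p = 0.0515), with no filter (adjusted p = 0.372) and without diapaused replicate 1, WT replicate 1 or WT replicate 2 (adjusted p = 0.0570, 0.0643 and 0.0698). The seeds of miR-672-5p and of miR-451a were called lower. The first was lost without diapaused replicate 1 or 2 or WT replicate 2 (adjusted p = 0.0570, 0.0790 and 0.0834), and the second without WT replicate 2 (adjusted p = 0.936) and without diapaused replicate 1, 2 or 3, where it fell below the filter.

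The remaining called seed was CUCAAAC, shared by miR-292a-5p, miR-293-5p and miR-290a-5p, none of which was called alone. It had 3158, 2058 and 1540 counts in diapaused and 480 and 1400 in WT libraries, which is 21.78, 21.64 and 17.02% against 27.52 and 28.34% of all counts. The log2 change was -0.62 (SE 0.18, edgeR adjusted p = 0.0397). The call did not hold in any fit that leaves out 1 of the 5 libraries, with values of -0.57, -0.59 and -0.33 without diapaused replicates 1, 2 and 3 and -0.63 and -0.27 without WT replicates 1 and 2, at adjusted p = 0.0936 to 0.607. Neither did it hold with library size scaling (log2 -0.46, adjusted p = 0.182), without a filter (adjusted p = 0.907) or in the fit of the 2 groups alone (adjusted p = 0.119).

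Detection differed with depth. Diapaused replicates 1, 2 and 3 had 296, 257 and 257 names with a count, and WT replicates 1 and 2 had 151 and 207. Thinned to 1744 counts, the expected numbers were 166.1, 160.1 and 172.2 against 151 and 153.8, so most of the gap went with depth and the diapaused libraries stayed above both WT libraries. Names seen in diapaused libraries only numbered 166, with 2.39% of the counts of that group, and 27 names were seen in WT only. Of the untested names with 10 or more counts in 1 group only, all 17 were in the diapaused group, which held 33059 counts against 6684. For 6 of these 17 the limit of 3 counts in WT allows a level as high as the diapaused one. miR-669f-3p, of the Sfmbt2 families, had 18, 14 and 18 counts against 0 and 0, which puts the lower limit of its ratio at 3.19. The limit was 1.98 for miR-676-3p (11, 10 and 10 counts). For miR-215-5p (25, 2 and 8 counts) it was 2.23, with most of its counts in diapaused replicate 1. These names were picked for having 0 WT counts, so the limits describe the counts and are not a test of a difference.

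The polar change was then set beside that of mural fragments from the same 2 kinds of blastocyst (n = 3 and 2). In edgeR's test of the difference between both changes, 0 of 102 miRNAs were called (0%), with 12 at an unadjusted p under 0.05, and DESeq2 called 0 with 11. In mural fragments the log2 values were 0.93 (SE 0.24) for miR-200c-3p, 1.73 (SE 0.35) for miR-30d-5p, 1.71 (SE 0.27) for miR-148a-3p and 1.10 (SE 0.38) for miR-10b-5p. miR-152-3p was at 130.2 CPM ± 34.2 (SD, n = 3) in mural diapaused and 137.7 CPM ± 25.6 (n = 2) in mural WT fragments, beside 2780.3 CPM ± 1024 and 102.9 CPM ± 145.6 in polar ones, and its difference between the changes did not pass (adjusted p = 0.352). The members with the smallest p for this difference were miR-101a-3p (log2 -2.01), miR-292a-3p (log2 -0.90, with 0.39 in mural fragments), miR-294-3p (log2 -0.64) and miR-292a-5p (log2 -0.71, with 0.21 in mural fragments), all at an adjusted p of 0.352. The mural value of miR-5126 rests on mural WT replicate 2, at 24755 CPM against 467.4 CPM in replicate 1.

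**Figure D5:**
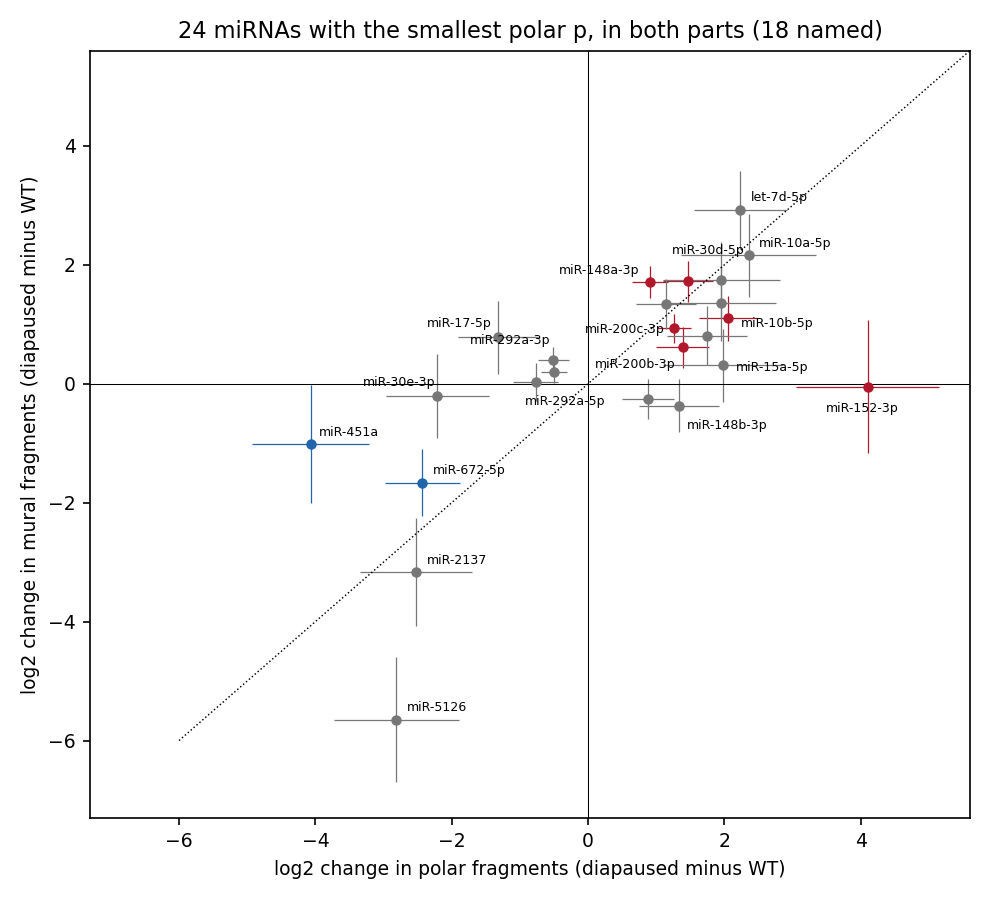
Log2 change in mural against polar fragments (diapaused minus WT) of the 24 miRNAs with the smallest polar p, with bars of 1 SE and a dotted line of equal change. Red and blue points were called higher and lower in polar fragments. miR-10b-5p, miR-200c-3p and miR-30d-5p lie above 0 on both axes, and miR-152-3p lies at 4.10 in polar and -0.05 in mural fragments.

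In polar fragments of mTORi blastocysts (n = 3), a pause brought about by a drug that blocks the growth kinase mTOR, levels are given beside those above. The labels give no embryonic day for these. miR-200c-3p was at 57942, 35949.6 and 33486 CPM, miR-148a-3p at 37913, 31720.2 and 29211 CPM, and miR-672-5p at 358, 2961 and 1069 CPM. miR-152-3p was at 715.3, 845.9 and 2494 CPM, from 11 counts in all, above both WT libraries, and the highest of them was above the lowest diapaused library. In the direct comparison of diapaused with mTORi polar fragments, 16 of 102 miRNAs were called (15.7%). The 8 miRNAs called against WT had adjusted p = 0.0574 to 0.813 there. The value nearest the threshold was that of miR-10b-5p, at -0.97 (SE 0.33), with 129118, 51598 and 37049 CPM in the mTORi libraries, the first 2 of which were above all diapaused libraries. It was called with RLE factors, in DESeq2 and without mTORi replicate 2 or 3. Both comparisons use the same diapaused libraries.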

How the data were processed

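The deposited values are counts, whole numbers per mature miRNA name without normalization, 1 file for each library. Per the labels, the ligated adapters carried unique molecular identifiers, no size selection was made, PCR ran for 12 to 20 cycles and reads were 75 nt long. The submitters' processing notes name GRCm38. Aligner, miRNA annotation and any collapsing of identifiers: not given in the sources used here. No batch is labelled.

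Groups follow the tissue and treatment labels. In R 4.3.3, edgeR 4.0.16 filterByExpr (minimum count 10, total 15) kept 102 names with 92.83 to 94.64% of the counts of the 5 libraries. TMM scaling and a quasi-likelihood fit with a mean for each of 6 groups over all 16 libraries followed (10 residual degrees of freedom, common dispersion 0.1417). Called means a two-sided Benjamini-Hochberg adjusted p under 0.05 over all tested names. SE is the log2 change divided by the root of F. CPM is tested counts after TMM scaling to a common library size, and shares use all counts. Shares got no test. Seed families sum all names with the same bases 2 to 8. The script was tested on simulated data.

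Members and lists were chosen with earlier results of these data known. Named were the called miRNAs, the next by p up to 24, the 10 most abundant, up to 4 members of lists with at least 3 tested members, called seeds, and untested names in 1 group only. After values were seen, lists without a call were kept for naming only with at least 3 members without overlap. miR-182-5p apart, single values from the other lists (miR-101a-3p, miR-101b-3p, miR-30b-5p, let-7i-5p), of miR-294-3p within its seed group and of the marker names were also chosen after their values were seen. Replicates were not duplicates (chi-square per degree of freedom 3.153 to 5.035). Alternatives were RLE factors, library size, no filter, a stricter filter, fewer groups, DESeq2 1.42.0, robust fitting, a replicate block and each library left out.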

Additional observations from a re-analysis of the deposited data

How the results depend on the processing

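Against the 8 polar calls (6 higher, 2 lower), RLE factors gave 13 (6 and 7, 46.2% higher in place of 75%) and moved the median log2 of all tested miRNAs by -0.111. DESeq2 gave 15 (8 and 7, 53.3% higher), no filter 6 (2 and 4, 33.3% higher), the stricter filter 11 (7 and 4, 63.6%), the 2 groups alone 12 (7 and 5, 58.3%) and the 3 polar groups alone 4 (2 and 2, 50%). The calls gained with RLE factors were all lower, namely miR-2137, miR-292a-5p, miR-293-5p, miR-30e-3p and miR-5126, and all 8 calls were kept. Leaving out 1 of the 5 libraries gave 2 to 7 calls (2 to 7 higher, 0 to 5 lower), with 4, 2 and 4 without diapaused replicates 1, 2 and 3 and 7 without either WT replicate. Seed families called went from 6 (3 higher, 3 lower) to 1 to 5 with a library left out (1 to 4 higher, 0 to 3 lower), and those called lower to 5 with RLE factors, the 2 groups alone or DESeq2. The 16 calls between diapaused and mTORi fragments became 4 to 18, with 6, 5 and 4 without diapaused replicates 1, 2 and 3, and 21 in DESeq2. The difference between polar and mural changes had 0 calls in every fit run, with 5 to 15 at an unadjusted p under 0.05 in fits with a library left out. Where no cause is given, the cause was not tested.

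Uncalled miRNAs near 0 changed sign. miR-294-3p became 0.0037 with library size scaling, 0.0083 in the 3 polar groups and 0.0033 with the replicate block, and ran from -0.33 to 0.14 with a library left out. miR-294-5p became -0.095 with RLE factors, -0.040 without a filter, -0.075 with the stricter filter, -0.053 in the 2 groups, -0.10 in DESeq2 and -0.032 with the replicate block, and ran from -0.62 to 1.39 with a library left out. With a library left out, miR-293-3p ran from -0.62 to 0.0497, miR-183-5p from -0.0087 to 0.30, miR-93-5p from -0.38 to 0.012, let-7b-5p from -0.33 to 0.0030 and let-7e-5p from -0.68 to 0.018.

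Same-numbered diapaused and WT libraries had correlations of deviations of -0.07 (number 1) and 0.0173 (number 2). With 2 WT libraries, the WT deviations mirror each other, so these correlations cannot tell whether same-numbered samples share more than a number. With the replicate block 7 polar miRNAs were called (all but miR-148a-3p), 6 seed families, 15 miRNAs between diapaused and mTORi fragments and 0 for the difference between parts. Depth limits the comparison most in WT replicate 1, whose 1744 counts put the level of 3 counts at 1557 CPM.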

Other observations

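Several uncalled miRNAs, chosen after their values were seen, were also without overlap between the polar groups. miR-26b-5p had 243, 129 and 149 counts in diapaused and 21 and 36 in WT libraries (log2 0.68, SE 0.40, edgeR adjusted p = 0.281). miR-21a-5p, a widely expressed miRNA linked to growth and stress, had 204, 55 and 75 counts against 4 and 19 (log2 1.47, SE 0.91), with diapaused replicate 1 well above the others. miR-28a-3p had 36, 17 and 16 counts against 2 and 1, a count ratio of 4.4 (exact 95% interval 1.44 to 21.8). In the lower direction, miR-340-5p had 6, 5 and 13 counts against 5 and 15 (log2 -2.02, SE 0.91, adjusted p = 0.179).

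The arms of the miR-296 hairpin, beside the imprinted Gnas gene, were present in different proportions. Its 5p arm gave 52.08, 53.12 and 47.83% of the hairpin's counts in diapaused libraries and 36.36 and 23.81% in WT libraries, from 25 and 23, 17 and 15, 11 and 12, 4 and 7, and 5 and 16 counts of the 5p and 3p arms. These shares were not tested.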
